A study of Mus musculus with 12 samples.

Results

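The genes described here are named for the mitochondrial respiratory chain and ATP synthase, and most encode subunits of them. They were taken by gene name: the Ndufa, Ndufb, Ndufc, Ndufs and Ndufv series of complex I, Sdha to Sdhd of complex II, the Uqcr genes and Cyc1 of complex III, the Cox4 to Cox8 genes of complex IV, the Atp5 genes of complex V, and the protein-coding genes of the mitochondrial genome, whose names begin with mt-. Of 100 matching names, 1 was a pseudogene by its name and 4 had a mean expected count below 10, which left 95 of the 38924 genes listed. These were 82 nuclear genes (37 of complex I, 4 of complex II, 9 of complex III, 16 of complex IV and 16 of complex V) and 13 mt- genes (7 of complex I, 1 of complex III, 3 of complex IV and 2 of complex V). The complexes are classes by name, so Ndufa4 is counted with complex I and Atp5sl with complex V. All 95 passed the filter on low counts that left 17765 genes for testing.

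The respiratory chain passes electrons from NADH and succinate through complexes I to IV to oxygen and pumps protons across the inner mitochondrial membrane. ATP synthase, complex V, uses the returning protons to make ATP. Complexes I, III, IV and V are built from subunits of both genomes, whereas complex II is entirely nuclear, and neurons depend strongly on this supply of ATP for firing and axonal transport.

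Whole spinal cord of mice of the B6J.Cg background, aged 8 weeks, was sequenced in 12 libraries of polyadenylated RNA. The groups were wild type (WT) and mice heterozygous for the C201R change in Gars, which encodes glycyl-tRNA synthetase, an enzyme that works in both cytosol and mitochondria. The titles gave 6 libraries to each genotype, with 3 female and 3 male in each. Their genotype labels read C201R+/+ and C201R+/-, which with the titles were taken as wild type and heterozygous. No transgene, other allele or treatment is named in the labels. Separate animals are not stated for the libraries, and p-values therefore cover library-to-library spread, which may be technical. In 4 libraries the title and the library name gave different genotypes. Numbers 4 and 9 are WT by title but C201R by name, while 11 and 12 are C201R by title but WT by name. Genotype was therefore compared by title (6 against 6), by library name (6 against 6) and in the 8 undisputed libraries (C201R libraries 1, 2, 3 and 10 against WT libraries 5 to 8). The 3 comparisons share libraries and are not independent.

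Total expected counts ran from 27175421 to 38271405 per library. Gars was between 130 and 155 CPM in every library, a level that does not check a single-residue change. CPM here are counts relative to the TMM-scaled library size. Xist, the transcript of the inactive X chromosome, disagreed with the titled sex in 6 libraries. It was high in 5 libraries titled C201R and 1 titled WT, in 3 of each genotype by library name, and in 3 undisputed C201R libraries and 1 undisputed WT library. The genotype fits used the titled sex as a term, so they do not adjust for sex as Xist gives it. The word undisputed refers to the genotype labels only. The part of Xist-based sex in the results was not tested. The neuron list was detected in full, at a summed 4640 to 5155 CPM. Skeletal muscle transcripts were also present, from 31.1 to 3542 CPM in sum.

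The respiratory chain was among the strongly expressed parts of the transcriptome. In TPM, a level per transcript length, the median of the mean levels over 12 libraries was 242.5 for the 82 nuclear genes and 11392 for the 13 mt- genes, against 13.6 for all genes tested. Of the nuclear genes, 71 were above 100 TPM. The highest was Atp5b, the catalytic beta subunit of ATP synthase, at 1275 ± 69.4 TPM (SD, n = 12). Cox4i1, the common isoform of the regulatory subunit IV of cytochrome c oxidase, followed at 988 ± 47.7 TPM. Ndufa4, which is named for complex I but is now counted with complex IV, was at 881 ± 40.1 TPM.

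The median of mean TPM over the nuclear genes was 189 for complex I, 160 for complex II, 279 for complex III, 334 for complex IV and 397 for complex V. Among the mt- genes, the complex I subunits lay between 5036 TPM (mt-Nd5) and 11392 TPM (mt-Nd1). mt-Cytb of complex III was at 14019 TPM, and the complex IV subunits lay between 20407 TPM (mt-Co3) and 27292 TPM (mt-Co1, which holds the oxygen-reducing site). Of the complex V subunits, mt-Atp6 was at 23540 TPM, within the range of complex IV, and mt-Atp8 had the highest mean TPM and the widest SD, 33996 ± 14061 (n = 12). That mean covers values from 16698 to 53782 TPM, and in libraries 4, 6, 9, 10, 11 and 12 mt-Atp8 was below mt-Co1. In CPM, which does not allow for length, mt-Atp8 had a mean of 1238, against 20133 for mt-Co1. Nuclear copies of mt- genes and processed pseudogenes of Cox, Nduf and Atp5 genes can share reads with these genes, which RSEM divides between them.

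**Figure D1:**
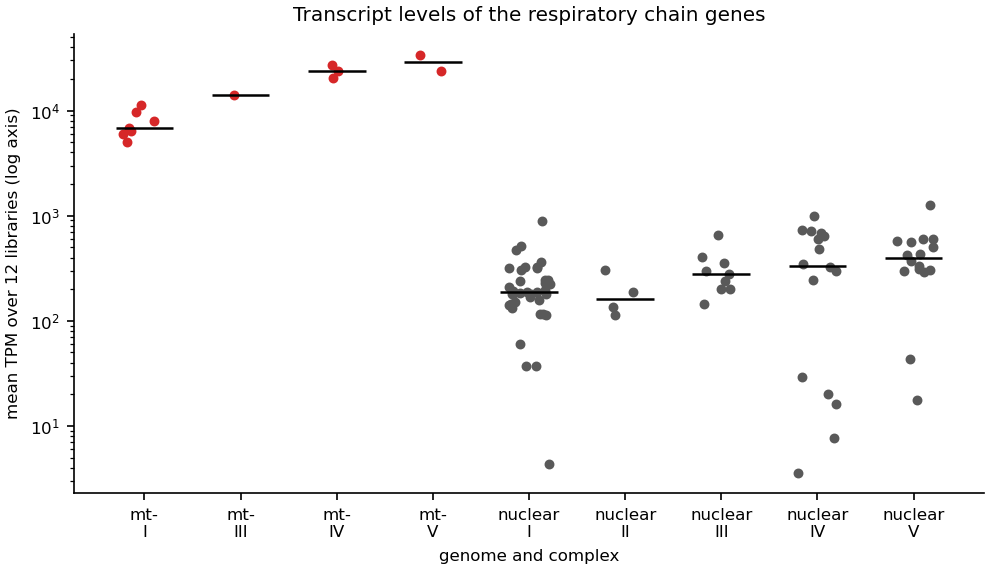
Mean TPM over 12 libraries (log axis) of each respiratory chain gene, 1 point per gene, by genome and complex, with the median of each class as a bar. The 13 mt- genes (red) all lie at 5036 TPM or above, and the highest nuclear gene (grey), Atp5b, lies at 1275 TPM.

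A few nuclear genes were near the detection limit. Atp5g2, which with Atp5g1 (303 TPM) and Atp5g3 (559 TPM) encodes the same mature ring subunit c, was listed at 0 in every library, and this may be a failed estimate. Outside the minimum lay also Cox7b2 (a testis form, mean count 5.42), Atp5l2 (0.427) and Cox8c (0). Just inside it lay Cox4i2 (35.4), Cox6b2 (45.6), Ndufa4l2 (59.1) and Cox8b (74.5).

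No respiratory chain gene differed between the genotypes at an adjusted p of 0.05. By title genotype 0 of 95 passed edgeR's quasi-likelihood test with Benjamini-Hochberg adjustment over all genes, where 0.0% of the 17765 genes tested passed. By library name 0 of 95 passed, against 0.715% of all genes, and in the 8 undisputed libraries 0 of 95, against 0.163%. At an unadjusted p of 0.05, 1, 1 and 3 of the 95 were under the threshold, against 6.77, 12.79 and 12.97% of all genes. DESeq2 also called 0 of the 95 in each comparison.

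For the nuclear genes the estimates were small and narrow. The median log2 difference, C201R minus WT, of the 82 genes was -0.0065 by title, -0.0128 by library name and -0.0068 in the undisputed libraries, beside 0.0012, 0.0023 and 0.0053 for all genes. The 95% interval lay within 0.2 of 0 on the log2 scale for 76, 76 and 71 of the 82. Over the 5 complexes and the 3 comparisons the median log2 difference ran from -0.0208 to 0.0255. Of the 37 nuclear genes of complex I, 22, 22 and 21 were on the lower side. These counts describe signs only.

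Core subunits showed this pattern at high depth. Atp5b had 925, 974 and 980 CPM as lowest, median and highest in libraries named C201R and 963, 998 and 1022 CPM in those named WT, so the groups overlapped. Its log2 difference was -0.04 ± 0.02 (SE; edgeR adjusted p = 0.552). By title it was -0.01 ± 0.02. Ndufs1, an iron-sulfur subunit of the complex I arm that takes electrons from NADH, differed by 0.01 ± 0.02 by title and 0.01 ± 0.03 by name. Sdha, the flavoprotein of succinate dehydrogenase, differed by -0.01 ± 0.02 and -0.02 ± 0.02. Uqcrc1, a core protein of complex III, differed by 0.01 ± 0.03 and 0.02 ± 0.03, and Cox4i1 by -0.03 ± 0.03 and -0.02 ± 0.03. In both comparisons the 95% intervals of these 5 subunits lay between -0.09 and 0.0824. In the undisputed libraries their differences were -0.04 ± 0.03 (Atp5b), 0.01 ± 0.03 (Ndufs1), -0.02 ± 0.03 (Sdha), 0.02 ± 0.04 (Uqcrc1) and -0.04 ± 0.04 (Cox4i1).

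The nuclear gene closest to a call was another in each comparison, and all 3 of these were on the higher side in C201R there. Cox4i2, the hypoxia-responsive isoform of subunit IV, had the lowest adjusted p by title (0.671). It had 1.10, 1.24 and 1.58 CPM as lowest, median and highest in libraries titled C201R and 0.784, 0.967 and 1.14 CPM in those titled WT. The ranges overlapped, and the log2 difference was 0.39 ± 0.14 (SE; edgeR). In the undisputed libraries it was 0.24 ± 0.19, and by library name the sign was opposite, -0.05 ± 0.19. The pericyte and smooth muscle list, in which Cox4i2 is typically expressed, had 12 of 12 genes detected, and its sum was 357 to 478 CPM in libraries titled C201R and 361 to 414 CPM in those titled WT. Its part in the Cox4i2 values was not tested.

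By library name the lowest adjusted p (0.188, edgeR) belonged to Atp5sl, which is singled out here after its values were seen. It is named after ATP synthase but is known as an assembly factor of complex I. Its lowest, median and highest CPM were 30.3, 30.8 and 32.6 in libraries named C201R and 28.5, 29.5 and 30.2 in those named WT. The groups did not overlap, and the log2 difference was 0.09 ± 0.03. In the undisputed libraries, which are part of the same groups, the ranges did not overlap either and the difference was 0.09 ± 0.04 (edgeR adjusted p = 0.374). By title the ranges overlapped and the difference was 0.03 ± 0.04.

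Among the undisputed libraries the nuclear gene of lowest adjusted p (0.328, edgeR) was Sdhd, a membrane anchor of complex II. Its CPM were 72.9, 72.0, 70.9 and 68.6 in C201R libraries 1, 2, 3 and 10 and 69.1, 70.5, 64.9 and 67.8 in WT libraries 5 to 8. The ranges overlapped, since library 10 was below 2 of the WT libraries. The log2 difference was 0.08 ± 0.03.

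The mt- genes lay slightly lower in C201R in all 3 comparisons, with much wider errors, and none passed the test. Their median log2 difference was -0.08 by title, -0.05 by library name and -0.07 in the undisputed libraries, and 12 of the 13 were on the lower side each time. The exception was mt-Nd6, encoded on the other strand, at 0.02 ± 0.10, 0.03 ± 0.10 and 0.05 ± 0.12 (SE). The 13 are not independent, since most are cut from a shared precursor transcript. The median distance from the estimate to the end of its 95% interval was 0.22, 0.23 and 0.19 for mt- genes and 0.07, 0.07 and 0.10 for nuclear genes. Only 2, 3 and 4 of the 13 intervals lay within 0.2 of 0.

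The mt- gene closest to a call was mt-Co1 in the undisputed libraries. It had 20366, 20885, 19276 and 19260 CPM in C201R libraries 1, 2, 3 and 10 and 21375, 21117, 20996 and 20925 CPM in WT libraries 5 to 8. The groups did not overlap. The log2 difference was -0.07 ± 0.03 (SE; edgeR adjusted p = 0.317). With the disputed libraries included the ranges overlapped by either label, from 17833 to 20885 CPM titled C201R and 17909 to 21905 CPM titled WT. The marker lists of 2 cell types were also lower in C201R in these libraries, without overlap. The neuron list, with 7 of 7 genes detected, was at 4640 to 4828 CPM in C201R and 4835 to 5155 CPM in WT, and the oligodendrocyte list, with 6 of 6, at 25781 to 28486 and 28726 to 30877 CPM. Their part in the mt-Co1 difference was not tested.

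Among the mt- genes the largest fitted difference was that of mt-Nd2, at -0.11 ± 0.13 by title, -0.13 ± 0.13 by name and -0.16 ± 0.12 in the undisputed libraries.

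**Figure D2:**
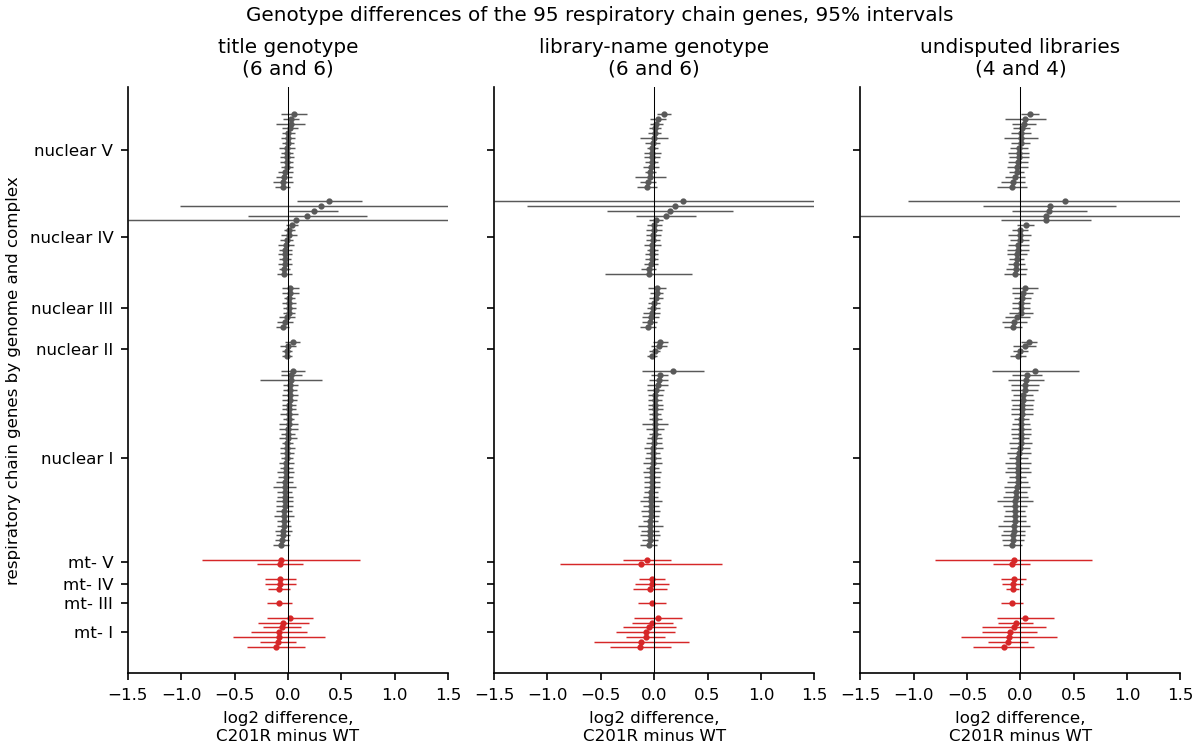
Fitted log2 difference, C201R minus WT (horizontal axis), of the 95 respiratory chain genes with 95% intervals, by genome and complex, in the 3 comparisons; intervals are drawn to 1.5 at most. The nuclear genes (grey) cluster at 0 with narrow intervals except a few isoforms of complexes I and IV, and the mt- genes (red) have wider intervals, with 12 of 13 points below 0 in each panel.

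Transcripts of the mitochondrial genome varied more between libraries than those of the nuclear genes, and this variation crossed both genotype labels. The coefficient of variation of CPM over the 12 libraries had a median of 13.04% for the 13 mt- genes and 3.86% for the 82 nuclear genes, of which 68 were under 5%. For the 10461 genes with a mean above 10 CPM the median was 5.34%. The mt- genes took 5.94 to 8.10% of all counts and the nuclear genes 0.864 to 0.949%. The mt- share was 6.98 ± 0.740% in libraries titled C201R and 7.23 ± 0.646% in those titled WT, and 7.10 ± 0.713% and 7.11 ± 0.704% by library name (SD, n = 6 each), so these differences were smaller than the spread.

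mt-Atp8, which encodes a small subunit of the ATP synthase membrane part, varied most among the mt- genes, with a coefficient of variation of 44.9%. It had 1563, 1970, 1639, 1866, 1738 and 1768 CPM in libraries 1, 2, 3, 5, 7 and 8. In libraries 4, 6, 9, 10, 11 and 12 it had 720, 763, 670, 828, 570 and 755 CPM. No library lay between 828 and 1563 CPM. Each of these sets of 6 libraries holds 3 libraries of each genotype by title, and 3 of each by library name. mt-Nd3, a small membrane subunit of complex I, had between 681 and 936 CPM in the first 6 libraries and between 420 and 528 CPM in the others.

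The same 6 libraries were the 6 highest for 7 of the 13 mt- genes: mt-Atp8, mt-Nd3, mt-Nd6, mt-Nd4, mt-Nd2, mt-Atp6 and mt-Nd5. The separation was narrow for some of these, with 1265.0 and 1265.4 CPM on its sides for mt-Nd6. These 7 are the 7 mt- genes of lowest GC content, 31.9 to 37.1%. The other 6 genes, at 37.6 to 41.1% GC, shared 4 or 5 of their 6 highest libraries with mt-Atp8.

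Sequences of 2 short mt- genes with unlike base composition and unlike spread are shown. mt-Atp8 (chrM:7766-7969, plus strand, GRCm38 of GENCODE M21) is 204 bases long with 31.9% GC, and mt-Nd4l (chrM:9877-10173, plus strand) is 297 bases long with 41.1% GC. Both overlap the next gene, and capitals mark the 43 bases that mt-Atp8 shares with mt-Atp6 and the 7 bases that mt-Nd4l shares with mt-Nd4.
mt-Atp8: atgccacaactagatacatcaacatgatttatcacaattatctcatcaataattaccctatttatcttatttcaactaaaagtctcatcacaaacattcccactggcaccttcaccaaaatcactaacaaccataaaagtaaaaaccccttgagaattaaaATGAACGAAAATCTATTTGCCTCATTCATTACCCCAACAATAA
mt-Nd4l: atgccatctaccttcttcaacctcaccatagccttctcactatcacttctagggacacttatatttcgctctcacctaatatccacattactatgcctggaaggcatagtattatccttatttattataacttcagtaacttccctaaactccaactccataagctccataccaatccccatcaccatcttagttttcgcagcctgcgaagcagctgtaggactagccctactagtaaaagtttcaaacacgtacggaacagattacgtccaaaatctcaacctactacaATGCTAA
In libraries 1 to 12 mt-Nd4l had 572, 640, 530, 565, 615, 572, 603, 623, 479, 481, 478 and 542 CPM. Its coefficient of variation was 10.3%, and libraries 3 and 4, which lay on opposite sides for mt-Atp8, were 530 and 565 CPM. Reads in the shared bases, which for mt-Atp8 are a sizeable stretch of the gene, cannot be assigned to either gene with certainty.

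Over the 13 mt- genes the coefficient of variation fell with GC content (Spearman's rho = -0.89, Pearson's r = -0.82), and less with length (rho = -0.324, r = -0.459). These are descriptions across genes that share libraries and precursors. Over the 82 nuclear genes, at 37.0 to 62.7% GC, the relation with GC content was weak (rho = 0.113, r = 0.151). Atp5f1, a nuclear gene of the ATP synthase stalk with 37.0% GC, varied by 2.75%, while mt-Nd5, with 37.1% GC, varied by 14.4%.

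**Figure D3:**
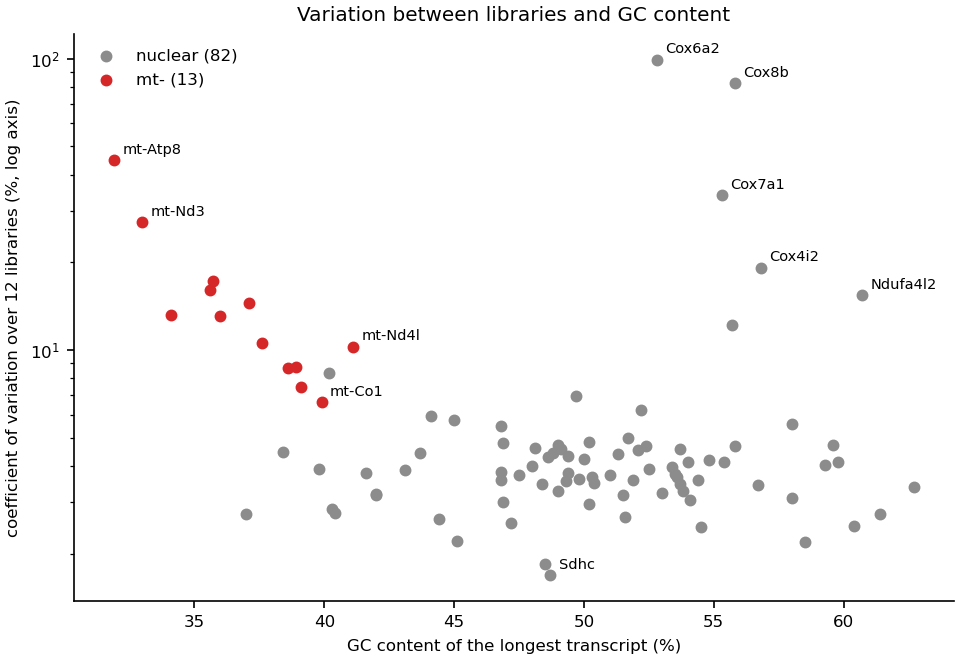
Coefficient of variation of CPM over the 12 libraries (log axis) against GC content of the longest GENCODE M21 transcript, 1 point per gene. The mt- genes (red) run from mt-Atp8 (31.9% GC, 44.9%) down to mt-Co1 (39.9% GC, 6.62%), and mt-Nd4l (41.1% GC, 10.3%) lies above mt-Co1. Nuclear genes (grey) show no such slope, and the muscle isoforms Cox6a2, Cox8b and Cox7a1 stand above the rest.

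Genes outside the respiratory chain moved with GC content as well. For each library a GC measure was computed after the mt-Atp8 pattern was seen: the median centred log2 CPM of the quintile of genes lowest in GC minus that of the quintile highest in GC, over 14922 genes with no mt- or respiratory chain gene among them. It ran from -0.10 in library 9 to 0.12 in library 2. Libraries 1, 2, 3, 5, 7 and 8 had -0.003, 0.12, 0.05, 0.08, 0.10 and 0.07, and libraries 4, 6, 9, 10, 11 and 12 had -0.04, -0.06, -0.10, -0.05, -0.09 and -0.07. The lowest of the first set was above the highest of the other set.

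With this measure as the tested term, 12 of the 13 mt- genes rose with it in edgeR, where 6.73% of all genes tested rose and 3.3% fell. Since the measure is built from other genes of the same libraries, that share is not an independent background. Over the whole range of the measure mt-Atp8 rose by 1.89 ± 0.19 on the log2 scale (SE, n = 12; edgeR adjusted p = 0.000167). mt-Nd3 rose by 1.11 ± 0.08 (edgeR adjusted p = 5.4e-05) and mt-Co1 by 0.21 ± 0.06 (edgeR adjusted p = 0.0475). mt-Cytb, at 0.22 ± 0.07, did not pass (edgeR adjusted p = 0.0802). mt-Nd4l, the mt- gene of highest GC content (41.1%), rose by 0.398 ± 0.065 (edgeR adjusted p = 0.00253), more than mt-Co1 and mt-Cytb. Of the 82 nuclear genes 0 rose and 7 fell: Ndufb8, Ndufa10, Ndufb10, Cox6a1, Cox6b1, Cox7a2 and Atp5j2, by 0.10 to 0.15.

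**Figure D4:**
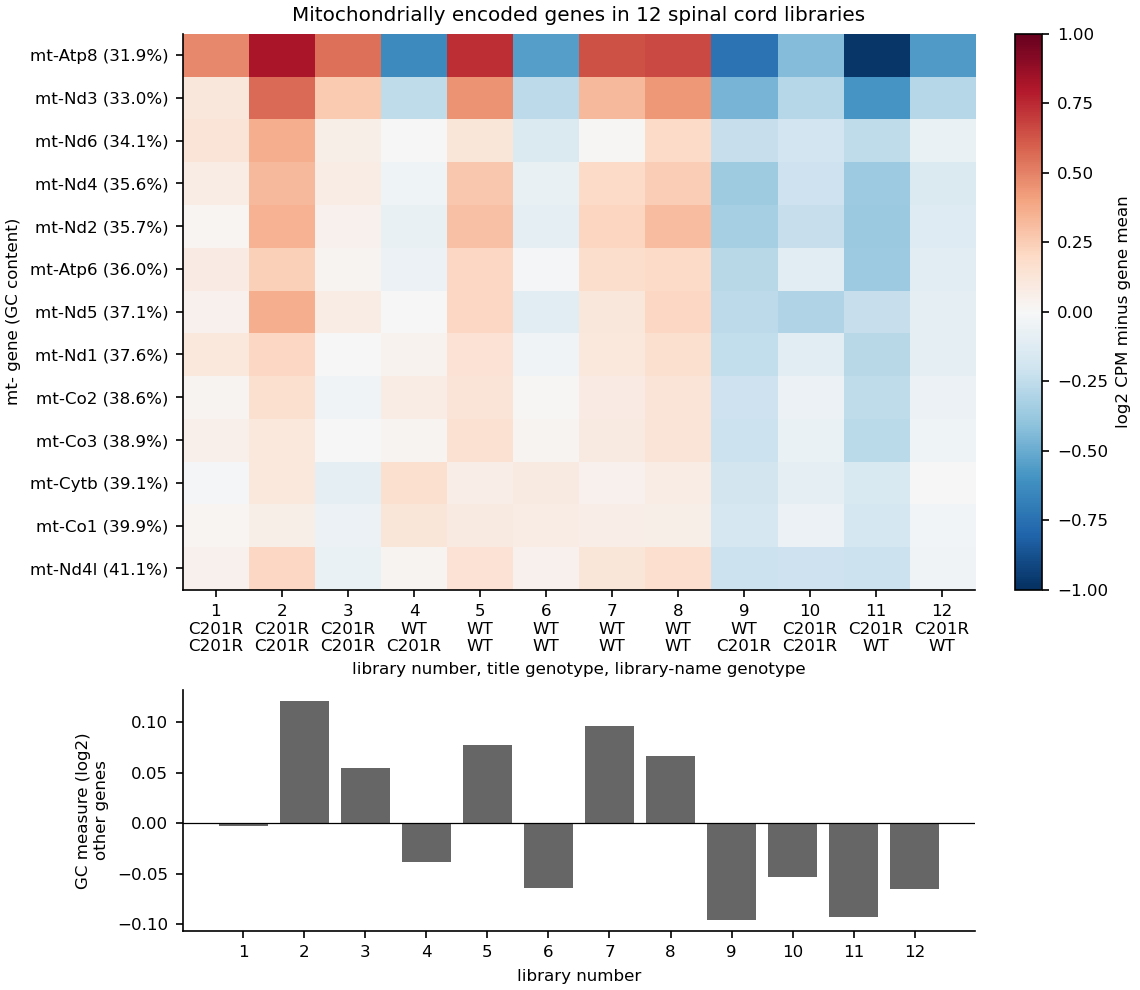
Upper panel, log2 CPM of each mt- gene minus its mean over the 12 libraries, in colour, with genes ordered by GC content and libraries by number with both genotype labels. Lower panel, the GC measure of the other genes (log2) in the same libraries; libraries 1, 2, 3, 5, 7 and 8 are red in the upper rows, and the measure is higher in them than in the other 6.

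The labels name 2 library kits (KAPA Stranded mRNA-Seq and KAPA mRNA HyperPrep) and v2 and v2.5 sequencing reagents, without saying which library received which, so a comparison within kit could not be made. With the GC measure as a further term in the genotype fit, the median mt- difference was -0.04 by title, 0.01 by library name (11 of 13 on the higher side) and -0.03 in the undisputed libraries. With the library number as a linear term it was -0.23 by library name, with all 13 on the lower side and 10 under an unadjusted p of 0.05. None passed there either, with a lowest edgeR adjusted p of 0.0565. In the undisputed libraries the number moved the median to -0.20, with all 13 on the lower side, 12 under an unadjusted p of 0.05 and 0 passing (lowest edgeR adjusted p = 0.273), and by title it was -0.08. With both terms the medians were -0.04 by title, -0.03 by library name and -0.04 in the undisputed libraries.

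The nuclear genes moved together between libraries by a small amount. Their summed level was lowest in library 2 (8618 CPM) and highest in library 6 (9476 CPM), a ratio of 1.10. Library 2 was the lowest of the 12 for 46 of the 82 nuclear genes and library 7 for 21, and library 6 was the highest for 29. For the mt- genes library 2 was the highest for 10 of 13 and library 11 the lowest for 11. Libraries 2 and 7 had the 2 highest values of the GC measure, and the part of this in the nuclear levels was not tested beyond the fits above. Library 2 carries C201R and library 7 WT by both labels.

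The least variable respiratory chain gene was Sdhc, a membrane anchor of complex II, at 74.1 to 78.4 CPM (coefficient of variation 1.69%). Sdha varied by 1.85%, Cox8a by 2.201%, Ndufs1 by 2.21% and Atp5a1, the alpha subunit of ATP synthase, by 2.46%.

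The most variable nuclear genes were the muscle isoforms of complex IV, and they were highest in the libraries with the most skeletal muscle transcripts. Subunits VIa, VIIa and VIII each have a form that is typical of heart and skeletal muscle (Cox6a2, Cox7a1, Cox8b) and a form found in most tissues (Cox6a1, Cox7a2, Cox8a). Cox6a2 had 8.16, 0.435, 12.96, 2.196, 2.71, 5.88, 0.702, 12.0, 2.40, 3.44, 0.210 and 2.02 CPM in libraries 1 to 12. The 4 highest were libraries 3, 8, 1 and 6, which were also the 4 highest for Cox8b and Cox7a1. These 4 were the libraries with the most skeletal muscle transcripts, at 0.353, 0.290, 0.185 and 0.168% of counts, against at most 0.0789% in the other 8.

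The skeletal muscle list had 16 of 16 genes detected, with no gene at 0 in all libraries. Its sum ran from 31.1 to 3542 CPM in libraries titled C201R and from 151 to 2961 CPM in those titled WT, and by name from 31.1 to 3542 CPM and from 32.6 to 2961 CPM. At the low end the order differed. In the lowest libraries of the list, 2 and 11, Cox6a2 had 0.435 and 0.210 CPM, its 2 lowest values. Cox8b had 1.83 and 0.480 CPM and Cox7a1 had 2.92 and 2.34 CPM there, and in library 2 both were above libraries 4, 7, 9, 11 and 12. Ucp1, which marks brown fat, had 10.8 CPM in library 2 and at most 3.63 CPM elsewhere, and Cox8b is typical of brown fat as well. The share of muscle or fat in these levels was not tested, and in bulk RNA fewer cells and less RNA per cell cannot be told apart.

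The general forms stayed level in the same libraries. Cox6a1 lay between 127 and 143 CPM, Cox7a2 between 98.4 and 110 CPM and Cox8a between 146 and 156 CPM. In TPM the muscle forms were low beside them: 16.1 ± 15.8 for Cox6a2 and 601 ± 31.4 for Cox6a1, 29.2 ± 9.50 for Cox7a1 and 324 ± 18.6 for Cox7a2, 20.3 ± 16.5 for Cox8b and 715 ± 31.3 for Cox8a (SD, n = 12). None of the 3 muscle forms differed by genotype. The log2 difference by name was 0.27 ± 0.81 for Cox6a2, 0.19 ± 0.64 for Cox8b and 0.14 ± 0.27 for Cox7a1 (SE; edgeR adjusted p = 0.932, 0.936 and 0.884). By title these were 0.07 ± 0.81, 0.31 ± 0.61 and 0.18 ± 0.26, and in the undisputed libraries 0.24 ± 0.94, 0.42 ± 0.64 and 0.27 ± 0.27. The 95% interval for Cox6a2 by name, from -1.497 to 2.03, shows that only a change of several fold would have been detectable.

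**Figure D5:**
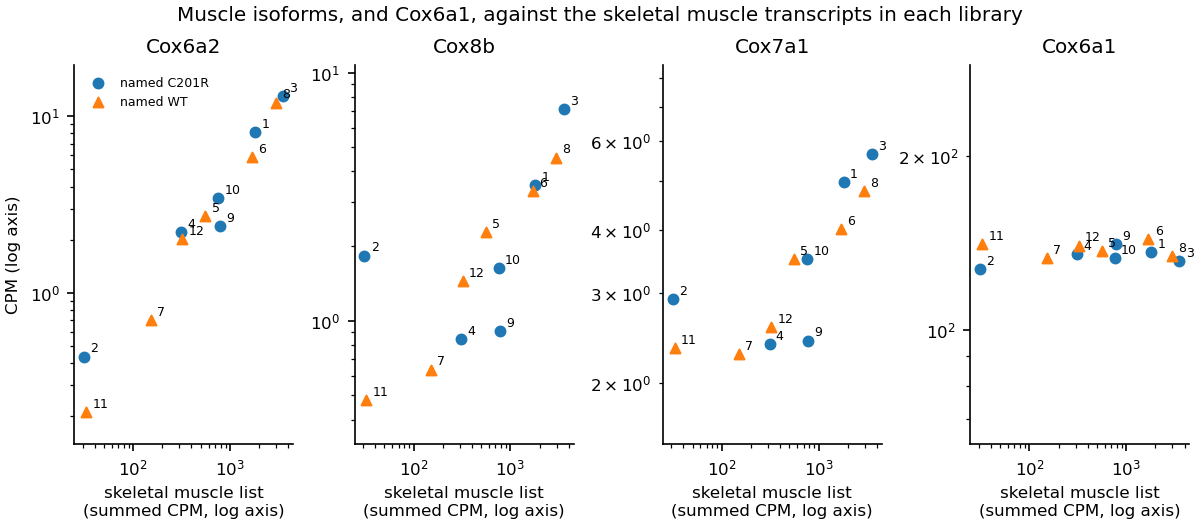
CPM of the muscle isoforms Cox6a2, Cox8b and Cox7a1 and of the general isoform Cox6a1 against the summed CPM of the skeletal muscle list (log axes), 1 point per library with its number and library-name genotype. Libraries 3, 8, 1 and 6 are at the upper right for the 3 muscle isoforms, and Cox6a1 stays between 127 and 143 CPM.

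Other tissue-restricted forms were low. Cox6b2, a testis form, had 1.43 to 1.84 CPM in libraries titled C201R and 1.201 to 1.40 CPM in those titled WT. These groups did not overlap, but the gene did not pass (log2 difference 0.24 ± 0.11, edgeR adjusted p = 0.737), and by name they overlapped (0.11 ± 0.13). In the undisputed libraries the difference was 0.27 ± 0.15. Ndufa4l2, a paralog of Ndufa4 that is induced by low oxygen, had 1.40 to 2.35 CPM over all libraries and had a log2 difference of 0.03 ± 0.14 by title, 0.18 ± 0.13 by name and 0.14 ± 0.18 in the undisputed libraries.

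Promoters of the nuclear genes held the letters of a known regulator of this gene class more often than promoters overall. NRF1, nuclear respiratory factor 1, binds a palindrome-like site with the core GCATGCGC. In RefSeq promoters (GRCm38.p6, 250 bases before to 50 after the start) 64 of the 82 nuclear genes had an entry, and 9 of these 64 (14.06%) held GCATGCGC on either strand, against 3.05% of 27025 genes. CGGAAG, a core bound by ETS factors such as GABP (nuclear respiratory factor 2), was in 39.06%, against 18.78%. CCAAT was in 43.75%, against 41.06%, and TATAAA in 9.38%, against 15.67%. These letters are matches and not shown to be sites. The 27025 genes were not matched to the respiratory chain genes in base composition or level. GCATGCGC and CGGAAG both hold CG, and the part of base composition in their shares was not tested.

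Windows upstream of the RefSeq start show GCATGCGC in 4 general subunits. They also show an E-box (CAGCTG, a letter string bound by muscle regulatory factors among others) before the muscle isoform Cox8b. The motif is in capitals and each window is written 5′ to 3′ on the gene's strand. In GENCODE M21 Atp5k starts at chr5:108434448, so its match lies inside the gene by that annotation. The windows are chr5:108434415-108434472 (Atp5k, minus), chr9:44920950-44920992 (Atp5l, minus), chr5:115349086-115349143 (Cox6a1, minus), chr17:56717679-56717736 (Ndufa11, plus) and chr7:140900447-140900490 (Cox8b, minus).
Atp5k: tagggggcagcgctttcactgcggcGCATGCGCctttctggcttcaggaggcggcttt
Atp5l: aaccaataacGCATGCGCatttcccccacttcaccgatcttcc
Cox6a1: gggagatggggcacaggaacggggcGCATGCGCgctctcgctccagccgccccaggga
Ndufa11: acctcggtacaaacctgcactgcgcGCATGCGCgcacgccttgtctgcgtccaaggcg
Cox8b: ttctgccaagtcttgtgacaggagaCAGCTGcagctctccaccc
CAGCTG was in 6 of the 64 promoters (9.38%), against 18.29% of all genes. The other carriers were the general subunits Atp5b, Ndufa8, Ndufb10, Ndufs5 and Ndufv2.

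Genes that serve the respiratory chain without being part of it also did not pass the test. Of 121 tested genes in 7 lists, 0 passed in each comparison by edgeR. At an unadjusted p of 0.05, 7, 11 and 14 of them were under the threshold, where the shares of all genes were 6.77, 12.79 and 12.97%. The lowest adjusted p were 0.621, 0.159 and 0.183. The lists were assembly factors of complex I (14 tested) and of complexes II to V (28), the machinery of mitochondrial DNA and RNA (26), regulators of respiratory genes (12), the citric acid cycle (14), electron carriers and coenzyme Q synthesis (18) and carriers of ATP and protons (9). Coq7, a hydroxylase of coenzyme Q synthesis, was closest by name at 0.14 ± 0.04 (SE; edgeR adjusted p = 0.159). Tfam, which packages and transcribes mitochondrial DNA, was at 0.09 ± 0.03 (edgeR adjusted p = 0.237). With the GC measure as a further term by library name, 3 of the 121 passed (Ppargc1a, Ndufaf5 and Slc25a27; edgeR adjusted p = 0.0378, 0.0439 and 0.037), where 2.64% of all genes did, a share close to theirs. By title and in the undisputed libraries 0 of the 121 passed with that term.

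The rRNAs of the mitochondrial ribosome lay on the same side as most mt- mRNAs, and neither passed. mt-Rnr1, the small rRNA, had 1949, 2335, 2407 and 2173 CPM in the undisputed C201R libraries 1, 2, 3 and 10 and 3014, 2686, 2458 and 2695 CPM in WT libraries 5 to 8. These groups did not overlap, and the log2 difference was -0.30 ± 0.08 (SE; edgeR adjusted p = 0.188). The neuron and oligodendrocyte lists did not overlap in the same libraries either, and their part in this difference was not tested. Libraries 4, 9, 11 and 12 had 2698, 2421, 2414 and 2727 CPM, and with them the ranges overlapped by either label. These libraries were selected for polyadenylated RNA, so the level of rRNA here is not that of the ribosome.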

How the data were processed

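Spinal cord RNA of 12 libraries was read as 75-base pairs, per the labels' protocols. The submitters' processing notes name Bowtie2 2.2.0 and RSEM 1.2.12, with a build not given in the sources used here. The deposited tables hold, per the file headers, RSEM expected counts, TPM, FPKM (left unused) and an effective length in bases (an other value, used only as a check).

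Rounded expected counts were filtered with filterByExpr on the 4 titled groups (17765 genes), TMM-scaled and tested in edgeR 4.0.16 (R 4.3.3, quasi-likelihood, titled sex as a term, Benjamini-Hochberg over all genes, threshold 0.05). An SE is the absolute log2 difference over the root of F. Across 66 library pairs chi-square per degree of freedom stayed at or above 5.8, and no library was treated as a repeat. Fits were also run on simulated counts drawn independently per gene, a check that does not cover the shared movement of genes between libraries.

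Alternatives were DESeq2 1.42.0, limma 3.58.1 on log2(TPM + 1) and log2(TPM + 0.1), voom, RLE, 2 other filters, scaling without mt- genes, no sex term, the library number, leaving out each library or the 4 libraries over 0.15% skeletal muscle transcripts, and, chosen after seeing the data, the GC measure with and without the library number. GC content is that of the longest GENCODE M21 transcript (95 of 95 genes). The GC measure used genes with a mean above 1 CPM and a pseudocount of 0.5 CPM.

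The genes, lists and tests were chosen with earlier results of these data known, and the motifs and printed sequences after seeing the data. The rule for names took all mt- genes, called genes, the 5 highest and 5 lowest differences per comparison, extremes of level and variation, core subunits, tissue isoforms, and up to 2 genes of a related list where none passed. Atp5f1, Atp5sl and nuclear genes following the GC measure were named after their values were seen. Tables and plots came from Python 3.11.15 (pandas 2.3.3, numpy 2.4.6, scipy 1.17.1, matplotlib 3.10.9).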

Additional observations from a re-analysis of the deposited data

Results flagged for a closer look

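Within groups of 6 libraries set by title or by library name, 168 groups of values of named genes were examined for a library far from the rest, and 14 held one; chance gives about 1 in 20. Library 2 was far below the others for nuclear genes. Atp5a1 had 676.6 CPM in it, against 721.8 to 740.9 CPM in the other libraries titled C201R and 715.1 to 732.8 CPM in the others named C201R. Sdha had 403.1 CPM (422.3 to 428.6 by title, 419.9 to 428.6 by name), and Uqcrc1 had 176.9 CPM (190.9 to 196.9 and 191.8 to 196.4). Cyc1, the cytochrome c1 of complex III, had 105.3 CPM (111.0 to 114.2 in the others titled C201R), and Sdhc had 74.1 CPM (76.7 to 77.9 in the others named C201R).

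Library 7 was low for Cyc1 (105.4 CPM, others named WT 111.6 to 114.8) and for Ndufa4 (153.6 CPM, others titled WT 163.4 to 167.3). Library 9, titled WT and named C201R, was low among libraries titled WT for mt-Co1 (17909 CPM, others 20925 to 21905), mt-Co2 (5892 CPM, others 6843 to 7409) and mt-Cytb (6486 CPM, others 7591 to 8227). Library 1 was high for Cox6b2 (1.84 CPM, others named C201R 1.255 to 1.44). The same library and gene can be counted by both labels, so these are not 14 separate events.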

How the results depend on the processing

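No respiratory chain gene passed in any of 25, 25 and 21 other settings by title, by name and in the undisputed libraries. The lowest edgeR adjusted p in any was 0.0565. One of the undisputed settings, without the muscle-rich libraries, held only 4 libraries and could hardly have shown a difference. The count of all genes that passed moved more. By title (0) it was 18 with DESeq2, 8 with the library number and 7 with GC measure and number. By library name (127) it was 335 with DESeq2, 41 and 42 with limma on log2(TPM + 1) and log2(TPM + 0.1), 235 with the number, 469 with the GC measure, 21 with both, and 12 without the 4 libraries rich in muscle transcripts. In the undisputed libraries (29) it was 255 with DESeq2, 91 without a filter, 12 and 12 with limma, and 267 with quality-weighted voom. It was 70 without a sex term, 14 with the number, 167 with the GC measure, 0 with both, and 1 without the muscle-rich libraries. The median mt- difference by name was -0.2299 with the number. Leaving out each library in turn gave 0 to 0 genes by title, 54 to 221 by name (lowest without library 7, highest without library 9) and 5 to 119 in the undisputed libraries (lowest without library 1, highest without library 10). The median mt- difference then ran from -0.1298 to -0.0242, -0.1027 to -0.006 and -0.1357 to -0.0322, and the nuclear one from -0.0158 to 0.0072, -0.029 to 0.0059 and -0.0265 to 0.0117. The causes were not tested. No paired analysis was possible because the titled groups share no replicate numbers. Cox4i2, Cox6b2, Ndufa4l2 and the muscle isoforms rest on few counts, and for mt- genes the spread between libraries, not depth, sets the width of the intervals.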
